A study of Mus musculus with 16 samples.

Results

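The epithelial alarmins Il33, Tslp and Il25 and their receptor chains Il1rl1, Crlf2 and Il17rb were followed in allergen-challenged mouse lungs after smoke or air before birth. The probe sets were those whose platform annotation gave exactly 1 symbol, equal to 1 of these 6 genes or to a synonym. They numbered 5 of 45037, with 1 probe set each for Il33, Tslp, Il25, Crlf2 and Il17rb. No probe set with the symbol Il1rl1 was listed in the annotation, so the receptor of Il33 was not analysed here.

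Each of 16 Affymetrix mouse genome arrays held RNA of 1 left lung of a Balb/c mouse aged 23 weeks, and there were 4 groups of 4. SHS females and SHS males had been exposed before birth to second-hand smoke (SHS), and air females and air males to filtered air. The SHS was sidestream smoke with 10 mg/m3 of particles for 5 h a day on 7 days a week. Every mouse, air groups included, also received ovalbumin (OVA, an egg protein used as an allergen), injected at the ages of 19 and 21 weeks and inhaled during weeks 22 and 23. The lungs are thus a model of allergic airway inflammation, and no lung without OVA was compared. Litters and mothers are not given in the labels, and p-values measure the spread between these lungs only. The values were log2 intensities, 1 for each probe set and lung, and the 4 lungs per group limited the precision. SHS was compared with air within each sex only, and no female level was set against a male level.

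Alarmins are cytokines that barrier cells release or secrete when they are damaged or sense allergen, smoke or microbes. IL-33, a nuclear cytokine of the IL-1 family, binds ST2 (the product of Il1rl1) together with the accessory chain Il1rap. TSLP resembles IL-7 and binds Crlf2 together with the IL-7 receptor chain Il7r, and IL-25, of the IL-17 family, binds Il17rb together with Il17ra. In the mouse lung alveolar type 2 cells are a major source of IL-33 and tuft cells of IL-25, and all 3 cytokines act on group 2 innate lymphoid cells, T helper 2 cells and mast cells, which make IL-5 and IL-13.

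The windows before the annotated starts of Il33 are shown because Il33 was the gene of the set that was higher after SHS in both sexes. RefSeq (assembly GRCm38.p6, a C57BL/6J genome, not Balb/c) gives 2 starts for Il33 on chromosome 19, within the gene at 29925113 to 29960718. Each window below is the 250 bases before a start, 5′ to 3′ on the plus strand, with motif matches in capitals. The first is chr19:29924863-29925112 and the second chr19:29945540-29945789.
Il33 upstream start: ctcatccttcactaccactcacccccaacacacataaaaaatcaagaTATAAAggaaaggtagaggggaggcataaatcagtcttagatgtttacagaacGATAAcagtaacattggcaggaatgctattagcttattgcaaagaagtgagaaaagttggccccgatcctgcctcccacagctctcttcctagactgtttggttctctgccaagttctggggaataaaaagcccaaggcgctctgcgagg
Il33 downstream start: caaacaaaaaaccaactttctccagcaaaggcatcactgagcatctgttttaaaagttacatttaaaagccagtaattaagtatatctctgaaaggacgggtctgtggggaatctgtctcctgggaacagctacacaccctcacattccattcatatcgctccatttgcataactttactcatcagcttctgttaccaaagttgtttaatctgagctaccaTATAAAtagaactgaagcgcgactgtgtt
Both strands were searched for 7 motifs, which are the one bound by TBP, TATAAA, that of AP-1, TGANTCA, and that of STAT factors, TTCNNNGAA. The others were that of the aryl hydrocarbon receptor, GCGTG, that of NRF2, TGACNNNGC, that of GATA factors, GATAA, and an NF-kB motif. The upstream window holds TATAAA once, from 203 to 198 bases before the start, and GATAA once. Of 32851 RefSeq windows of this length, 12.4% hold TATAAA and 22.6% hold GATAA. The downstream window holds TATAAA from 29 to 24 bases before the start and no other of these motifs. Of the 2 receptor genes measured, the window of Crlf2 (chromosome 5) holds GCGTG, which 28.2% of windows hold, 3 times, and the NF-kB motif, which 17.6% hold, once. That of Il17rb (chromosome 14) holds GCGTG and TGANTCA once each, and 6.75% of windows hold TGANTCA. The bases G and C make up 71.6% of the window of Crlf2 and 72.0% of that of Il17rb, against 45.2% and 39.6% of the Il33 windows. The shares count windows with any match and were not matched for G and C content. A match is a run of letters and no evidence of binding, and no window of Tslp is given here.

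In 15 of 16 arrays the mean correlation with the own group was above that with the other group of the same sex. The exception was SHS female replicate 4, which had a mean correlation across probe sets of 0.992 with the other SHS females and 0.995 with the air females. The surfactant gene Sftpc, of alveolar type 2 cells, and the club cell gene Scgb1a1 lay at group means of 15.03 to 15.16, among the highest values measured. Levels in a bulk lung cannot tell apart fewer cells of a type and less RNA per cell. For Il33, Tslp and Crlf2, female results are given with and without SHS female replicate 4. Leaving it out raised the female calls over all 45037 probe sets from 1294 to 3604. Female list counts without this lung are to be read beside that rise.

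Il33 rose after SHS in both sexes, and it was the only 1 of the 5 genes called in females. In SHS females its log2 values were 12.09, 12.11, 12.04 and 11.66, against 11.31, 11.24, 11.46 and 11.81 in air females. The groups overlapped by 1 lung on each side, since SHS female replicate 4 lay below air female replicate 4. The log2 difference was 0.52 ± 0.13 (SE, n = 4 and 4), or 1.43-fold, with an adjusted p of 0.044 in limma over all 45037 probe sets. In this comparison 2.87% of all probe sets were called, 2.36% as higher, and 1.33% were called higher in both sexes. All 4 SHS females lay above the air mean, and an exact two-sided permutation test of the 8 lungs gave p = 0.0571, where 0.0286 is the smallest p possible.

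In SHS males Il33 had log2 values of 12.25, 12.27, 12.29 and 12.18, against 11.00, 11.47, 11.39 and 11.62 in air males. Every SHS male lay above every air male, as did the SHS males for 7.87% of probe sets. The SHS males lay close together, with an SD of 0.0488 against 0.263 in air males. The log2 difference was 0.88 ± 0.13 (n = 4 and 4), or 1.84-fold, with an adjusted p of 0.00117 in limma, and the share of all probe sets called was 5.18%, of which 3.07% of all were higher. Counted from the highest difference, Il33 was number 128 of 45037 probe sets in males. The level of Il33 was above that of 96.0% to 98.2% of probe sets in the 4 groups.

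Averaged over the sexes, Il33 differed by 0.70 ± 0.09 (n = 8 and 8, adjusted p = 0.000123 in limma), where 10.3% of all probe sets were called, 6.65% as higher and 3.67% as lower. The difference between the effects, females minus males, was -0.36 with a 95% interval of -0.76 to 0.04 (adjusted p = 0.648 in limma), so the larger male value was not shown to differ from the female one. In females the call rested on a narrow margin. It was lost with quantile normalization (adjusted p = 0.0806) and with the 8 female arrays alone (adjusted p = 0.103). It held in 5 of the 16 fits that left out 1 array (SHS female replicate 4, air female replicate 4, SHS male replicate 4, air male replicate 1 or air male replicate 4), and the adjusted p lay between 0.00711 without SHS female replicate 4 and 0.142 without air female replicate 2. In males the call held in 16 of 16 such fits, with the highest adjusted p at 0.00641.

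Tslp moved the other way. In SHS males its log2 values were 6.96, 6.81, 6.84 and 6.93, against 7.49, 7.26, 7.91 and 7.55 in air males. Every SHS male lay below every air male, as for 7.51% of probe sets. The log2 difference was -0.67 ± 0.14 (n = 4 and 4, adjusted p = 0.0112 in limma), so the air level was 1.59 times the SHS level, and 2.11% of all probe sets were called lower. Counted from the lowest difference, Tslp was number 70 of 45037 probe sets in males, and the call held in 16 of 16 fits with 1 array left out (highest adjusted p = 0.0435, without air male replicate 3).

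In SHS females Tslp had log2 values of 6.61, 6.18, 6.72 and 6.91, against 7.09, 6.85, 7.26 and 6.89 in air females. All 4 SHS females lay below the air mean, but SHS female replicate 4 lay above air female replicates 2 and 4. The log2 difference of -0.42 ± 0.14 (n = 4 and 4) did not pass the test in limma (adjusted p = 0.137). Without SHS female replicate 4 it was -0.52 ± 0.14 and passed (adjusted p = 0.033), and without SHS female replicate 2, the lowest, it was -0.27 (adjusted p = 0.349). Averaged over the sexes the difference was -0.54 ± 0.10 (n = 8 and 8, adjusted p = 0.00202 in limma). The effects differed by 0.25, females minus males, with an interval of -0.17 to 0.68 (adjusted p = 0.774). Tslp lay near the middle of all probe sets, above 43.9% to 57.7% of them in the 4 groups.

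Il25 did not pass the test in either sex. Its log2 values ran from 3.97 to 4.39 in SHS females against 4.12 to 4.29 in air females, and from 4.26 to 4.46 in SHS males against 4.18 to 4.49 in air males. The groups overlapped in both sexes. The differences were 0.022 (95% interval -0.17 to 0.22, adjusted p = 0.943 in limma) in females and 0.056 (-0.14 to 0.25, adjusted p = 0.798) in males. The gene lay above only 10.9% to 13.0% of probe sets, and no detection call was used here. A change in Il25 was not detectable at this level, which does not show that there was none.

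**Figure D1:**
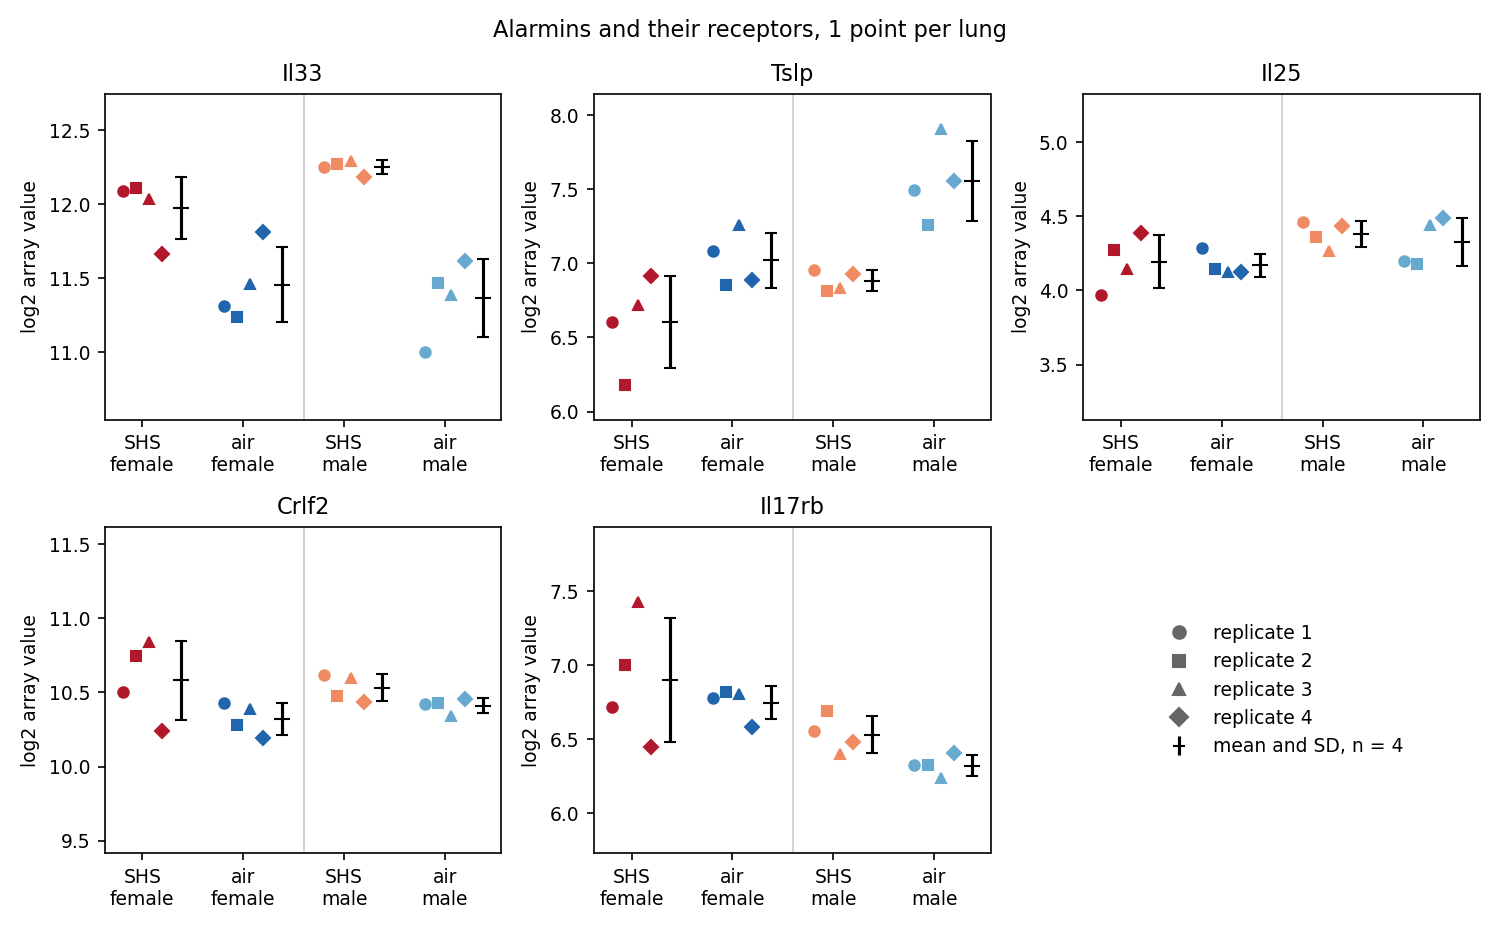
Log2 array values of the 5 genes in each lung (points, marker by replicate number) with the group mean and SD (n = 4) beside them, SHS left of air in each sex and each panel 2.2 log2 units high. Il33 is higher in SHS lungs, with SHS males at 12.18 to 12.29 above air males at 11.00 to 11.62, and Tslp is lower, with SHS males at 6.81 to 6.96 below air males at 7.26 to 7.91.

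Of the receptors, Crlf2, the specific chain for TSLP, had log2 values of 10.50, 10.74, 10.84 and 10.24 in SHS females, against 10.43, 10.28, 10.39 and 10.19 in air females. The first 3 SHS females lay above every air female and the fourth within their range. The difference of 0.26 ± 0.10 (n = 4 and 4) did not pass the test in limma (adjusted p = 0.204). Without SHS female replicate 4 it was 0.37 ± 0.09 and passed (adjusted p = 0.0126), and without SHS female replicate 3 it was 0.175 (adjusted p = 0.485). In SHS males Crlf2 had 10.62, 10.47, 10.59 and 10.43, against 10.42, 10.43, 10.34 and 10.45 in air males. The male groups overlapped, with a difference of 0.12 and an interval of -0.10 to 0.34 (adjusted p = 0.571 in limma). Averaged over the sexes Crlf2 differed by 0.19 ± 0.07 (n = 8 and 8, adjusted p = 0.112).

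Il17rb, the specific chain for IL-25, spread most among SHS females. Its log2 values there were 6.72, 7.00, 7.43 and 6.45, an SD of 0.418, against 6.78, 6.82, 6.81 and 6.58 in air females, an SD of 0.112. Both the highest and the lowest of these 8 lungs were SHS females, and the difference of 0.15 had an interval of -0.15 to 0.45 (adjusted p = 0.672 in limma). SHS males had 6.56, 6.69, 6.40 and 6.48, against 6.32, 6.32, 6.24 and 6.41 in air males. All 4 SHS males lay above the air mean, by a difference of 0.21 with an interval of -0.09 to 0.51 (adjusted p = 0.449 in limma, exact permutation p = 0.0571). The SD was 0.122 in SHS males and 0.0708 in air males, but the limma interval rests on 1 spread shared by all 4 groups.

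Of the 5 genes, 1 was called in females, 2 in males and 2 in the average, in both cases of 2 genes Il33 higher and Tslp lower. Over all probe sets the shares called were 2.87% in females, 5.18% in males and 10.3% in the average. In the difference of the effects between the sexes limma called 0 of 5 and 0% of all probe sets after adjustment. At an unadjusted p under 0.05 there were 0 of the 5 genes and 3709 of all 45037 probe sets. In SHS female replicate 4 Il33, Crlf2 and Il17rb were the lowest and Tslp the highest of the 4 SHS females.

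**Figure D2:**
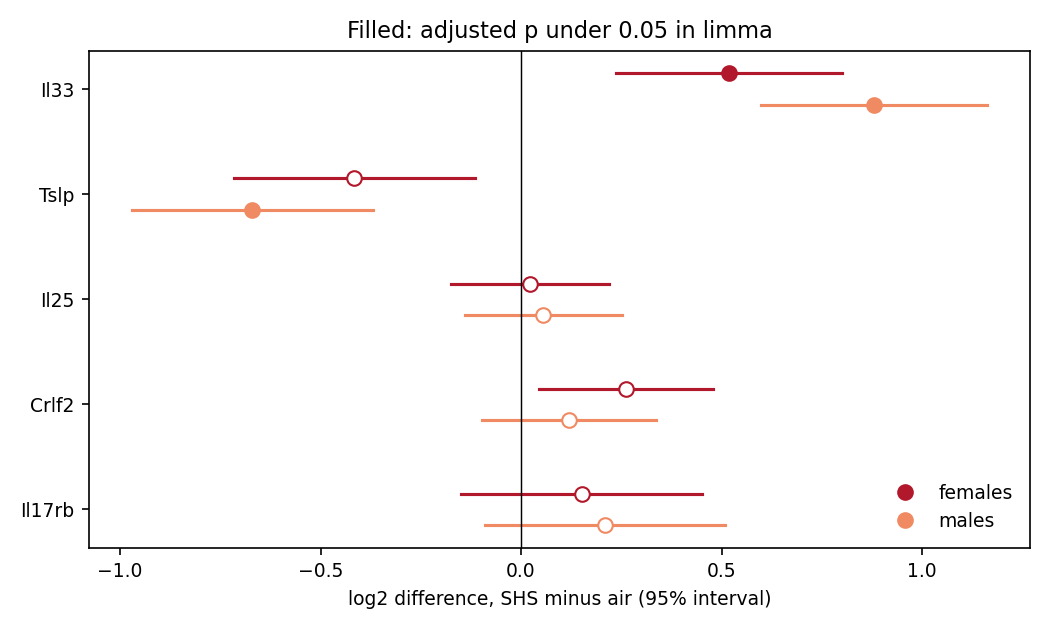
Log2 difference, SHS minus air, with its 95% interval for each gene in females (upper line) and males (lower line), filled where the adjusted p in limma was under 0.05. Il33 is filled in both sexes (0.52 and 0.88), Tslp in males only by the threshold (-0.42 in females and -0.67 in males), and the intervals of Il25 and Il17rb include 0 in both sexes.

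**Figure D3:**
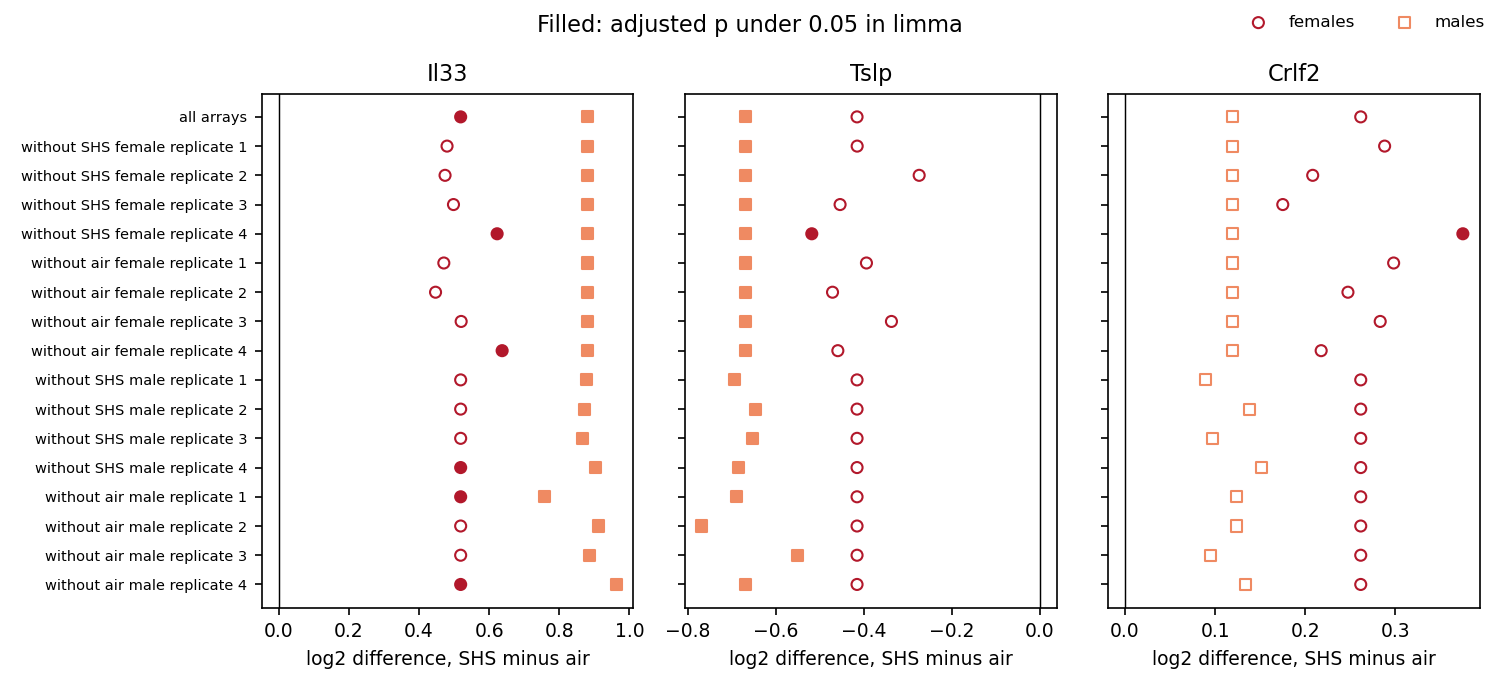
Log2 difference, SHS minus air, of Il33, Tslp and Crlf2 in females (circles) and males (squares) with all arrays and with each of the 16 arrays left out (rows), filled where the adjusted p in limma was under 0.05. The male points of Il33 and Tslp are filled in every row, the female points of Il33 in 5 of the 16, and those of Tslp and Crlf2 without SHS female replicate 4 only.

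The receptors pair with further chains. Of Il1rap, Il7r and Il17ra 0 of 3 were called in limma in either sex, with 0 of 3 in the average. Il1rap differed by 0.080 in females and -0.021 in males (adjusted p = 0.684 and 0.918). Il17ra differed by 0.061 and 0.020 (adjusted p = 0.859 and 0.949). Il7r had log2 values of 10.13, 10.74, 10.75 and 9.51 in SHS females against 10.22, 10.27, 10.13 and 9.87 in air females. In males it had 10.38, 10.27, 9.95 and 9.55 after SHS against 10.49, 10.32, 10.64 and 10.48 after air, a difference of -0.45 ± 0.22 that did not pass the test (adjusted p = 0.269). Replicate 4 was the lowest for Il7r among SHS females and among SHS males.

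Downstream of the receptors, 12 of 14 listed signalling genes were measured. They had a median difference of 0.040 in females and 0.055 in males, beside -0.0086 and -0.0021 over all probe sets. Myd88, the adaptor of the IL-33 receptor, was the only 1 of the 12 called, at 0.30 ± 0.08 in males (adjusted p = 0.03 in limma) and 0.14 in females (adjusted p = 0.387). Over all probe sets 2.36% were called higher in females and 3.07% in males. The male call held in 10 of 16 fits with 1 array left out (highest adjusted p = 0.0939) and was lost without any 1 of the 4 SHS males or without air male replicate 2 or 3. In SHS males Myd88 had log2 values of 10.02, 9.94, 10.02 and 10.01, against 9.77, 9.52, 9.60 and 9.88 in air males. These groups did not overlap, as for 7.87% of probe sets with SHS higher.

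Of 9 measured negative regulators of these pathways, 3 rose in females and 3 in males, beside 2.36% and 3.07% of all probe sets. Their medians were 0.23 and 0.16, and 0 fell. The genes that rose were the same 3, Cish, Socs1 and Socs3, which encode inhibitors of cytokine receptor and JAK-STAT signalling and are induced by it. Cish, a target of STAT5, differed by 0.65 ± 0.12 in females and 0.62 ± 0.12 in males (adjusted p = 0.00564 and 0.00568 in limma). Its log2 values were 10.22, 10.45, 10.37 and 9.86 in SHS females against 9.57, 9.54, 9.38 and 9.81 in air females, with no overlap, as for 5.61% of probe sets with SHS higher. In males they were 9.99, 10.01, 10.20 and 10.05 after SHS against 9.44, 9.59, 9.22 and 9.53 after air, again with no overlap, as for 7.87% of probe sets. Socs3 differed by 0.46 in females and 0.76 in males (adjusted p = 0.0219 and 0.000623), and Socs1 by 0.61 and 0.68 (adjusted p = 0.0156 and 0.00558). The female count of 3 lay between 1 and 4 in the 16 fits with 1 array left out. It was 1 without air female replicate 2, SHS female replicate 1 or SHS female replicate 2, and 4 without SHS female replicate 4. In females the call of Cish held in 16 of these fits, that of Socs1 in 12 and that of Socs3 in 11. The male count was 3 in each of the 16 fits.

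Of 11 measured genes of alarmin processing and release, 1 rose in each sex and 0 fell, with medians of 0.12 and 0.11. The share of all probe sets called higher was 2.36% in females and 3.07% in males. Ripk3, a kinase of necroptosis (a form of cell death that can release IL-33), differed by 0.61 ± 0.13 in females (adjusted p = 0.0138 in limma) and 0.37 ± 0.13 in males (adjusted p = 0.107). P2ry2, a receptor for extracellular ATP that takes part in the release of IL-33 by airway epithelium, differed by 0.31 in females (adjusted p = 0.242, and 0.45 with 0.0191 without SHS female replicate 4) and 0.51 ± 0.13 in males (adjusted p = 0.0333). In males its log2 values were 7.71, 7.63, 7.63 and 7.71 after SHS against 7.21, 7.24, 6.93 and 7.28 after air. These groups did not overlap, as for 7.87% of probe sets with SHS higher. The female count of 1 became 4 without SHS female replicate 4, 2 without SHS male replicate 4, and 0 without SHS female replicate 2 or 3. The male count of 1 became 0 without SHS male replicate 1, 2 or 3 or without air male replicate 1 or 3.

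Of 13 measured type 2 genes that lie downstream of the alarmins, 3 rose in females and 3 in males, with medians of 0.47 and 0.34, and 8 rose in the average, with 0 lower in each. The median of all probe sets in the average was -0.0075, and 6.65% of them were called higher. In females and males the shares called higher were 2.36% and 3.07%. Ccl24, an eosinophil chemokine, was called in both sexes, at 2.31 ± 0.52 in females and 2.09 ± 0.52 in males (adjusted p = 0.0199 and 0.0261 in limma). Its log2 values were 10.53, 11.83, 11.55 and 8.44 in SHS females, and air females reached 8.41. The call held in 11 of 16 fits with 1 array left out in each sex (highest adjusted p = 0.0767 in females and 0.0817 in males). Ccl22, which attracts T helper 2 cells through the receptor Ccr4, differed by 0.89 ± 0.21 in females (adjusted p = 0.031 in limma) and 0.67 in males (adjusted p = 0.0794). Its log2 values were 8.42, 9.29, 8.75 and 7.81 in SHS females against 7.85, 7.81, 7.46 and 7.61 in air females. The lowest SHS female was replicate 4, within the air range.

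Ccl17, a TSLP-inducible chemokine for the same receptor, differed by 1.09 ± 0.25 in males (adjusted p = 0.0178 in limma) and 0.72 in females (adjusted p = 0.144, and 0.95 with 0.0169 without SHS female replicate 4). Its log2 values were 9.28, 9.17, 10.20 and 10.39 in SHS males against 8.58, 8.47, 8.83 and 8.83 in air males, without overlap, as for 7.87% of probe sets. The others called were Ccl11 in males and Irf4, a transcription factor of T helper 2 cells named after its values were seen, in females. Il5 and Il13 passed in the average alone, at 0.42 (adjusted p = 0.0113) and 0.52 (adjusted p = 0.0192), and Il4 did not (0.35, adjusted p = 0.0619). The level of Il5 was low, with group means of 5.16 to 5.68 against a median of 7.02 over all probe-set means. The filter on low values left Il5 out. The female count of 3 became 9 without SHS female replicate 4 and 5 without SHS male replicate 4. It became 0 without SHS female replicate 1, 2 or 3 or air female replicate 2 or 3, and 1 without air female replicate 4. The male count of 3 became 6 without SHS female replicate 2 or 4, 1 without SHS male replicate 1 or 2 or air male replicate 3, and 0 without SHS male replicate 3 or air male replicate 1.

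**Figure D4:**
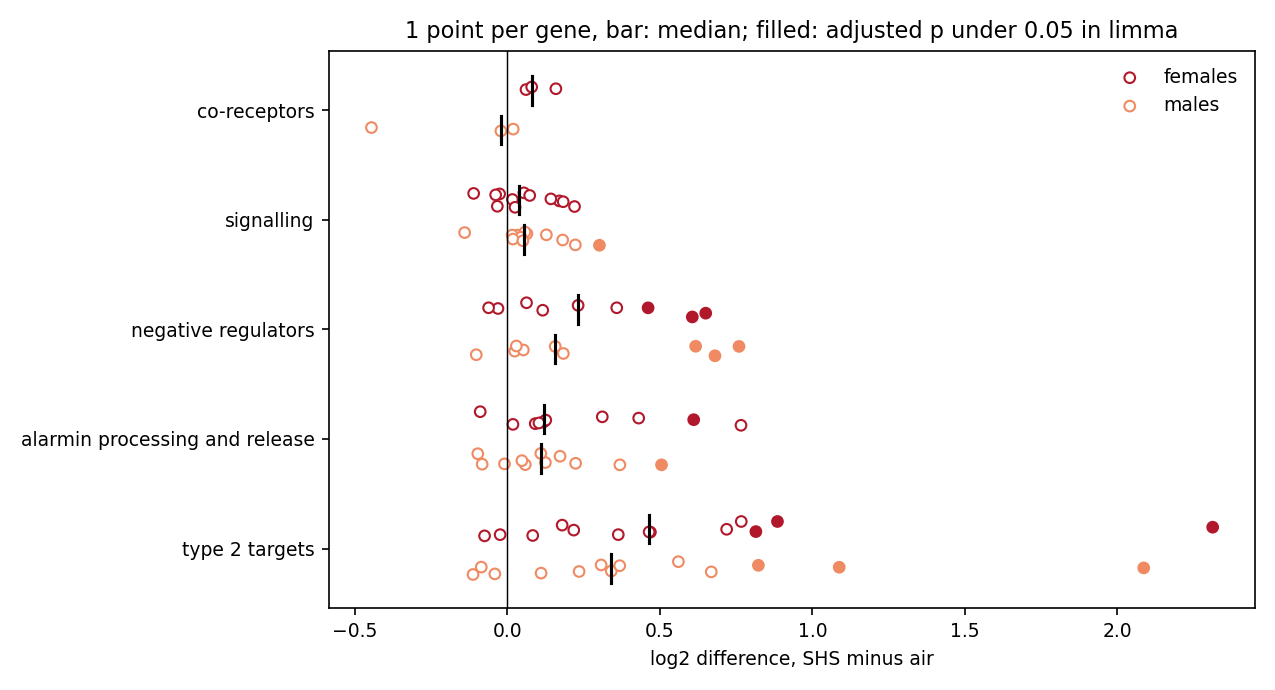
Log2 difference, SHS minus air, of each measured gene in 5 lists around the alarmins (rows), in females (upper points) and males (lower points), with the list median as a bar and calls at an adjusted p under 0.05 in limma filled. The filled points are all above 0, and the point farthest right in each sex is Ccl24 (2.31 in females and 2.09 in males).

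Markers of the cells that make or answer alarmins are given beside these results, and their part in them was not tested. Beside the marker counts, 2.36% of all probe sets were called higher and 0.517% lower in females, and 3.07% and 2.11% in males. In the average 6.65% were called higher and 3.67% lower. Of 9 alveolar type 2 markers 0 rose and 2 fell in males (Etv5 by 0.41 and Abca3 by 0.23, adjusted p = 0.0183 and 0.0485 in limma), and 0 were called in females, with medians of -0.13 in females and -0.18 in males. In the average 0 rose and 3 fell, with a median of -0.16. They were Etv5, Abca3 and Lpcat1 (-0.32, adjusted p = 0.00534), the last named after its values were seen. Differences lay above 0 for 3 of the 9 in each sex. The mean log2 level of the list was 12.91 to 12.96 in SHS males against 13.06 to 13.09 in air males, and 13.19 to 13.36 in SHS females against 13.23 to 13.44 in air females. The male count of 2 became 0 without SHS male replicate 4 or air male replicate 1, and 1 without SHS female replicate 1, SHS male replicate 1, 2 or 3, air female replicate 2 or 4 or air male replicate 2, 3 or 4. It rose to 3 without SHS female replicate 4. Of 10 basal and airway epithelial markers 0 were called in females and 1 in males, Krt8 at 0.32 (adjusted p = 0.0265), and 2 rose in the average. The male call was lost without SHS male replicate 1, 3 or 4 or air male replicate 1 or 3. The list means ran from 9.80 to 9.99 in SHS females against 9.86 to 10.01 in air females, and from 9.93 to 10.02 in SHS males against 9.79 to 9.93 in air males.

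Tuft cell markers had 1 of 9 called, Dclk1, a kinase also made by other cells, at 0.62 in females (adjusted p = 0.0398 in limma) and 0.54 in males (adjusted p = 0.0559). The female call held in 5 of 16 fits with 1 array left out (highest adjusted p = 0.135), namely without SHS female replicate 4, SHS male replicate 4, air female replicate 1 or air male replicate 2 or 4, and the male count of 0 became 1 without SHS female replicate 3 or 4 or SHS male replicate 4. Pou2f3, the factor that defines tuft cells, stood at 7.18 in SHS females against 7.26 in air females and at 7.27 in SHS males against 7.22 in air males. Of 10 markers of group 2 innate lymphoid cells 0 were called in females and 1 in males, Il2ra at 0.43 (adjusted p = 0.0151), with -0.034 in females. The group means of Il2ra were low, at 5.67 to 6.10, and the filter on low values left it out. The male count became 0 without SHS male replicate 1, and 2 without SHS female replicate 3 or 4, SHS male replicate 4 or air male replicate 2. In the average 2 rose, Icos (0.44, adjusted p = 0.00723) and Klrg1 (0.18, adjusted p = 0.049), both named after their values were seen. The list medians were 0.039 in females and 0.061 in males, with 6 of 10 differences above 0 in each sex. Rora (-0.12 in females and -0.26 in males) and Gata3 (-0.074 and -0.085) were lower and did not pass. Of 11 mast cell and basophil markers 0 were called in either sex, with medians of -0.16 in females and 0.018 in males. Without SHS female replicate 4 the female counts were 1 for the innate lymphoid markers and 2 for the mast cell and basophil markers. In that fit 3604 of all probe sets were called in females, against 1294 with all arrays.

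Dendritic cells carry Crlf2 and answer TSLP. Of 9 of their markers 1 rose in females and 3 rose in males, with medians of 0.21 and 0.085. Batf3, a transcription factor of dendritic cells, differed by 0.73 in females and 0.59 in males (adjusted p = 0.0145 and 0.0347 in limma), and Mgl2, a lectin, by 0.45 and 0.65 (adjusted p = 0.0638 and 0.00667). Without SHS female replicate 4 Mgl2 differed by 0.59 in females (adjusted p = 0.00278). The third gene called in males was Cd209a at 0.46 (adjusted p = 0.0371). Flt3 (-0.025 in females and -0.034 in males), Xcr1 (-0.14 and 0.035) and Zbtb46 (0.036 and 0.085) did not pass. Differences lay above 0 for 7 of 9 markers in each sex. The list means ran from 8.48 to 8.75 in SHS females against 8.36 to 8.48 in air females, and from 8.61 to 8.63 in SHS males against 8.29 to 8.48 in air males. Of 9 general leukocyte markers 0 were called in either sex, and their medians were 0.20 in females and 0.11 in males. Of these 9, 7 differences lay above 0 in each sex, and Siglecf was lower and did not pass (-0.32 in females and -0.54 in males, adjusted p = 0.567 and 0.216). In the average 1 rose, Itgax (0.45, adjusted p = 0.0377), beside 6.65% of all probe sets. Siglecf and Itgax were named after their values were seen. Without SHS female replicate 4 the female count was 3 for dendritic markers and 4 for leukocyte markers, and without SHS female replicate 2 or 3 or air female replicate 3 the dendritic count was 0. Without air female replicate 1 these counts were 2 and 1. The male dendritic count of 3 became 1 without SHS male replicate 1 or 3 or air male replicate 1, 3 or 4. In males the call of Mgl2 held in 16 of 16 fits with 1 array left out, that of Batf3 in 10 and that of Cd209a in 9. Genes of the cell cycle moved with the SHS groups too: 9 of 9 measured rose in each sex, with list means of 8.37 to 9.10 in SHS females against 7.56 to 7.87 in air females, and of 8.60 to 9.05 in SHS males against 7.74 to 8.04 in air males.

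The genes whose pattern was most like each alarmin or receptor were sought over the 16 arrays after the mean of each sex was subtracted, among genes with a mean above the median of all probe sets (11397 genes for Tslp and 11396 for Il33 and Crlf2). These correlations are descriptions, and the arrays share the same SHS and air groups. For Il33 they were Aen, an exonuclease gene induced by p53 (r = 0.963), Srm, which makes spermidine (r = 0.952), and Nup43, of the nuclear pore (r = 0.948). For Tslp they were Heph, a ferroxidase of iron transport (r = 0.959), Atp7b, a copper transporter (r = 0.941), and Pxylp1, a phosphatase of proteoglycan synthesis (r = 0.939). Heph and Atp7b differed by -0.53 and -0.58 in males (adjusted p = 0.00811 and 0.00415 in limma) and by -0.34 and -0.39 in females (adjusted p = 0.0993 and 0.0544). For Crlf2 they were Cd83, of mature dendritic and B cells (r = 0.949), Slamf8, of myeloid cells (r = 0.944), and Nfkbie, an NF-kB inhibitor (r = 0.942), of which 0 were called in either sex.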

How the data were processed

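The authors deposited 1 table of log2 intensities for 16 arrays, already normalized. The labels' processing notes name limma, and how the values were normalized is stated by no label or header read here. The 64 control probe sets were left out and 45037 kept without further normalization or filter. Symbols came from the platform annotation (34945 probe sets with 1 symbol, 932 with several and 9160 with none), and 34741 were matched to RefSeq GRCm38.p6 by Entrez identifier. A model with 4 group means was fitted to all probe sets with limma 3.58.1 in R 4.3.3 (12 residual and 5.56 prior degrees of freedom), and p-values were adjusted by Benjamini-Hochberg over all 45037, with calls at an adjusted p under 0.05. Errors with ± are SE for differences and SD for groups. Each SE, interval and p of limma uses, for a probe set, 1 spread shared by the 4 groups, the other sex included. Exact permutation tests over the 8 lungs of a sex were two-sided. The named genes were all members, the co-receptors, Il4, Il5 and Il13, up to 4 called genes of each list by the size of the difference, and the 3 genes most like each member with a highest group mean over the median probe-set mean. The members and lists were chosen with earlier results of these data known. Lists are described by counts and medians, without a set test. On simulated data for the female comparison over 45037 probe sets, 24% of 50 probe sets changed 1.25-fold, 76% of 50 changed 1.5-fold and 94% of 50 changed 2-fold were recovered. The simulated noise was independent between probe sets, and fewer probe sets were changed than the 1294 called in the real females. These rates may thus differ from those in the real lungs. Same-numbered SHS and air arrays had correlated deviations of -0.0796 to 0.267, not above 0.1 in every pair, so the numbers were not used as pairs. Alternatives were quantile normalization, a filter on low values, the replicate block, single-sex fits, array weights, other thresholds and leaving out arrays.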

Additional observations from a re-analysis of the deposited data

Results flagged for a closer look

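Of 20 groups of 4 values (5 genes in 4 groups), 3 held a lung far from the other 3 by Dixon's criterion, which chance alone meets in about 1 group of 20. Il33 was 11.66 in SHS female replicate 4, against 12.04 to 12.11 in the other SHS females. Il25 was 4.29 in air female replicate 1, against 4.12 to 4.14 in the other air females, at a level near the low end of the array. Il17rb was 6.58 in air female replicate 4, against 6.78 to 6.82 in the other air females.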

How the results depend on the processing

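Il33 and Tslp kept their direction and their calls in males and in the average with each array left out. In females Il33 lost its call with quantile normalization (0.48, adjusted p = 0.0806), with the replicate block (0.52, adjusted p = 0.0568), with the 8 female arrays alone (0.52, adjusted p = 0.103) and in the exact permutation test (0.52, p = 0.0571), and 0 of 5 genes were then called under the first 3. With 1 array left out Il33 in females lay between 0.45 and 0.64, Tslp between -0.52 and -0.27, Crlf2 between 0.175 and 0.37, Il17rb between -0.025 and 0.30 and Il25 between -0.042 and 0.097. The averages of Crlf2 and Il17rb lay between 0.15 and 0.25 and between 0.092 and 0.26, and the female minus male effects of Il17rb and Il25 between -0.23 and 0.093 and between -0.098 and 0.041. The called genes of the 5 numbered 0 to 3 in females and 2 to 4 in the average. Calls over all probe sets were 657 to 3604 in females, 1073 to 3153 in males and 3514 to 6983 in the average, and over the gene lists 11 to 43 in females and 15 to 32 in males.

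Without both SHS arrays numbered 4, 3 of 5 genes were called in females, with Crlf2 at 0.37 (adjusted p = 0.0118) and Tslp at -0.52 (adjusted p = 0.0373), and the average of Crlf2 was 0.26 (adjusted p = 0.00707). Il25 was then -0.042 in females and -0.0023 in the average, Il17rb 0.076 in females minus males, Il2ra 0.00092 in females and Il1rap 0.0405 in males, and calls were 3954 probe sets and 44 list genes in females and 7520 probe sets in the average. Array weights gave 3985 calls in females, 4398 in males and 7717 in the average, 37 list genes in females, Crlf2 at 0.20 in the average (adjusted p = 0.0285), Il25 at -0.065 in females and Il1rap at 0.0055 in males. The 8 female arrays alone gave 448 calls and 12 list genes. An adjusted p under 0.10 gave 2334 calls in females and 4073 in males. A 1.5-fold minimum gave 366, 463 and 406 calls in females, males and the average, 0 of 5 genes in females, 1 in the average and 17 list genes in the average. Quantile normalization gave 861 higher and 359 lower calls in females, against 1061 and 233 as deposited. With 1 array left out, Il17ra lay between -0.036 and 0.12 in females and -0.048 and 0.086 in males, Il2ra between -0.14 and 0.026 in females, and Il1rap between -0.064 and 0.0405 and Tcf21 between -0.080 and 0.027 in males. The causes were not tested. The filter on low values left out Il25, and of the named list genes Il5 and Il2ra. Another probe set of the 5 genes could not be tried since each gene had 1.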

Other observations

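Of 8 fibroblast markers 0 rose and 1 fell in females and 0 were called in males, with medians of -0.26 and -0.026. The share of all probe sets called lower in females was 0.517%. The gene called was Tcf21, a transcription factor of lung fibroblasts, at -0.56 in females (adjusted p = 0.00315 in limma) and -0.024 in males (adjusted p = 0.923), and the difference between the sexes did not pass the test (adjusted p = 0.383). The 3 collagen genes of the list differed by 0.16 to 0.38 in females and did not pass. Of 7 endothelial markers 0 rose and 1 fell in females and 0 were called in males, with medians of -0.15 and 0.018. The gene called was Tek, the angiopoietin receptor, at -0.46 in females (adjusted p = 0.0356) and -0.36 in males (adjusted p = 0.0769). Its female call held in 9 of 16 fits with 1 array left out and was lost without SHS female replicate 1, 2 or 3 or any 1 of the 4 air females. Without SHS female replicate 4 the female counts were 3 for fibroblast and 2 for endothelial markers.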
